A study of Mus musculus with 6 samples.

Results

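A set of 9 genes for transcription factors of the heart lineage, *Gata4*, *Gata6*, *Nkx2-5*, *Mef2a*, *Mef2c*, *Mef2d*, *Hand2*, *Tbx5* and *Tbx20*, were followed through bead array profiles of mouse left ventricle. They were chosen by name, and every probe annotated to one of these symbols was read on all 6 arrays. The array holds 17 such probes of 45281, for 8 of the 9 genes. No probe is annotated to *Mef2a*, which was not analysed here. A detection p below 0.01 on at least 2 arrays was reached by 13 of the 17 probes, at least 1 for each of the 8 genes, out of 9577 named genes measured in this way. The detected probe of a gene with the highest mean is called its lead probe.

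The hearts came from male c57/BL6 mice that were 6 to 8 weeks old at surgery and were sampled 3 weeks later, the time the labels give. The study's text gives a longer time for its own *Kdm3a*-Tg hearts. Mice were wild type (WT) or *Kdm3a*-Tg (Tg), and underwent sham surgery or transverse aortic constriction (TAC), which narrows the aortic arch and loads the left ventricle with pressure. The Tg mice carry a Flag-tagged cDNA of *Kdm3a*, a demethylase of lysine 9 of histone H3, behind the αMHC promoter, which is active in heart muscle cells. Each genotype had 1 sham mouse and 2 TAC mice, each with its own animal number and array. The study presents its main results from a single transgenic line and reports similar results in another. The labels do not name the line of each mouse.

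These factors work as a network. GATA4 and GATA6 are zinc finger proteins, NKX2-5 is a homeodomain protein, the MEF2 proteins are MADS-box factors, HAND2 is a basic helix-loop-helix protein, and TBX5 and TBX20 are T-box proteins. They bind near one another at genes of the sarcomere, of calcium handling and of the natriuretic peptides, and several of them bind each other. In the adult heart GATA4 and the MEF2 factors are known as targets of the kinase and calcium signals that pressure overload switches on, and NKX2-5 and TBX5 are known for their need in conduction tissue.

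The 250 bases before the annotated start of *Hand2* and *Nkx2-5* are shown, as these were the members with the smallest unadjusted p between Tg and WT TAC hearts. The *Hand2* stretch is chr8:57320733-57320982 on the plus strand and the *Nkx2-5* stretch is chr17:26841566-26841815 on the minus strand, both from RefSeq with build GRCm38.p6. Capitals mark the core that GATA factors bind, searched on both strands as 6 letters with A or T before GATA and A or G after it.
Hand2: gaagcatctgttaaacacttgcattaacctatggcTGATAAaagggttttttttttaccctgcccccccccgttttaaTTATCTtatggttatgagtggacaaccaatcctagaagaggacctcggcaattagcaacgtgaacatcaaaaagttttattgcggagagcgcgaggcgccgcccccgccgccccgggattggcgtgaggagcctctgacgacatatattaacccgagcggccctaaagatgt
Nkx2-5: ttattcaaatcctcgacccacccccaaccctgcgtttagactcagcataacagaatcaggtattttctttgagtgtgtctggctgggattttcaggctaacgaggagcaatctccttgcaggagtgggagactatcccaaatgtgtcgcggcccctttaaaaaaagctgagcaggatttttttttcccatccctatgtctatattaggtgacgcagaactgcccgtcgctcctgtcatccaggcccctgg
The *Hand2* stretch holds 2 matches, TGATAA beginning 215 bases and TTATCT beginning 172 bases before the start, and the *Nkx2-5* stretch holds 0. Both matches also lie in the annotated span of *Hand2os1*, a long non-coding RNA gene that covers chr8:57304261-57320859. Such a match stands in 29.8% of the 32851 windows of 300 bases around RefSeq starts, so it is a description of these letters and not a site. The *Nkx2-5* stretch lies inside the annotated gene (chr17:26838664-26844988), upstream of the shorter transcript. Windows of 300 bases were given for 6 of the 9 genes. Across them a MEF2 motif, searched on both strands, was found once, at *Mef2a*, and in 3.19% of all windows. The letters TNAAGTG for NKX2-5 (11.5% of all windows) and AGGTGTGA for T-box factors (1.28%) were found at no member.

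*Kdm3a* was read first, as a check of the genotype labels. The 2 Tg TAC libraries had raw intensities of 34642 and 33540 on probe ILMN_3118169, against 229 for WT TAC replicate 2 and 341 for WT Sham. Its intensity was 30614 for the library labelled WT TAC replicate 1, while that labelled Tg Sham gave 247. On this probe 2 of 6 libraries went against their genotype label. The other 3 *Kdm3a* probes showed no such step, with the highest at 392 to 755, and where any of them lies relative to the transgene cDNA is not known here. That highest probe, ILMN_2707895, was brightest in WT Sham (9.24 in log2 after normalization) and the library labelled WT TAC replicate 1 (9.04). It lay between 8.42 and 8.74 elsewhere. Differences between genotypes are therefore also given without the 2 libraries that went against their label on ILMN_3118169. Arrays had 15643 to 16492 detected probes and mean raw intensities of 403 to 503, and no 2 arrays were identical. WT Sham and the library labelled WT TAC replicate 1 were the brightest, with means of 483 and 503, against 403 to 435 in the other 4. Raw intensities of single probes are not corrected for this. The 7 measured cardiomyocyte markers summed to 167000 to 186000 on each array, so the defining markers of ventricular muscle were high throughout. Of 6 atrial markers, *Myl7*, *Sln* and *Bmp10* were not detected, and the other 3 summed to between 6420 and 40600. This sum is mostly *Nppa*, which loaded ventricle also expresses and which was highest for Tg TAC replicate 1 (15.28 in log2) and the library labelled WT TAC replicate 1 (15.22). *Stard10* of the same list was lowest in these 2, at 7.90 and 8.19, and lay between 8.58 and 9.10 in the other 4. *Myl4* went the other way, at 9.05 and 8.41 in these 2. It was 8.71 in Tg TAC replicate 2 and between 6.75 and 7.38 elsewhere. *Nppa* was below both shams in the second TAC replicates, at 13.08 in WT and 12.46 in Tg. It was 14.16 in WT Sham and 14.68 in the library labelled Tg Sham. *Nppb*, *Myh7* and *Acta1* did the same. *Kcnip2*, given further on, was below its own sham in every TAC library. The TAC comparisons average both replicates, and the cause of the difference between them was not tested.

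Values below are normalized log2 intensities of single probes unless raw intensities are named, and a difference of 1 is a 2-fold difference. Probes of different genes cannot be set against each other in level. Differences are given with the standard error (SE) of the limma fit, and a probe is called where its p, adjusted over all 17014 probes tested, is below 0.05. No probe of any gene was called in any of the 5 comparisons of group means, so 0 of 13 member probes stood against a background of 0%. Unadjusted p-values are given as a description. In bulk tissue, fewer cells of a type and less RNA per cell cannot be told apart.

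*Hand2*, which is known for its part in growth of the embryonic right ventricle and in the response of the adult heart to calcineurin signals, had the widest range of the 8 genes. It has a single annotated probe, ILMN_1229467, so no second probe was there to set beside it. Its raw intensity was 772 in WT Sham, 691 in the library labelled WT TAC replicate 1, 256 in WT TAC replicate 2, 215 in the library labelled Tg Sham, and 212 and 194 in Tg TAC replicates 1 and 2. On the normalized log2 scale these were 9.28, 8.95, 7.43, 7.13, 6.85 and 6.88. All 3 Tg libraries lay below all 3 WT libraries, and 2 WT libraries stood far above the other 4. The range of 2.42 in log2, or 5.36-fold, was wider than that of 99% of probes, where the median range was 0.66. The probe was detected on all 6 arrays.

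The *Hand2* signal of Tg TAC hearts differed from that of WT TAC hearts by -1.32 ± 0.49 in log2 (6.87 ± 0.02 against 8.19 ± 1.08, mean ± SD, n = 2 each; 0.4 times). The unadjusted p was 0.036 and the adjusted p 0.64 (limma). The spread within WT TAC was itself large, as its 2 libraries differed by 1.52, or 2.87-fold, more than 98.8% of probes did. The 2 Tg TAC libraries differed by 0.03. Without the library labelled WT TAC replicate 1 the difference was -0.56. Leaving out the library labelled Tg Sham as well could not change it, as this comparison does not use that library. Leaving out WT TAC replicate 2 instead gave -2.08 (adjusted p = 0.69). The size of the difference thus turned on which WT TAC library was used. Its sign could not, as both Tg TAC libraries lay below both WT TAC libraries.

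Between the shams the difference in *Hand2*, Tg minus WT, was -2.14 ± 0.69 (unadjusted p = 0.022, adjusted p = 0.99), with 1 library on each side, 1 of them labelled Tg Sham. Within WT, TAC libraries averaged -1.09 ± 0.60 against the sham (adjusted p = 1), and within Tg -0.27 ± 0.60 (adjusted p = 1). The difference between these TAC responses was 0.82 ± 0.84 (adjusted p = 1). Without the library labelled WT TAC replicate 1 the WT response was -1.85, and with that library alone it was -0.32, so the WT mean does not describe either heart.

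*Nkx2-5*, one of the earliest markers of heart muscle precursors, lay in the same order of libraries as *Hand2*, other than between the 2 Tg TAC libraries, but over a narrower range. Raw intensities were 1445 in WT Sham, 1361 in the library labelled WT TAC replicate 1, 946 in WT TAC replicate 2, 828 in the library labelled Tg Sham, and 799 and 634 in Tg TAC. The normalized log2 values were 10.25, 10.02, 9.79, 9.72, 9.46 and 9.25. The highest Tg library lay 0.07 below the lowest WT library, which is less than the difference between the replicates of either TAC group (0.23 in WT and 0.21 in Tg). Tg TAC against WT TAC gave -0.55 ± 0.19 (unadjusted p = 0.027, adjusted p = 0.64), and Tg Sham against WT Sham gave -0.53 ± 0.26 (adjusted p = 0.99). TAC libraries were below their own sham in both genotypes, by a mean of -0.34 ± 0.23 in WT and -0.36 ± 0.23 in Tg (adjusted p = 1 in each). Leaving out 1 TAC library at a time moved the difference between Tg TAC and WT TAC only between -0.67 and -0.44.

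**Figure D1:**
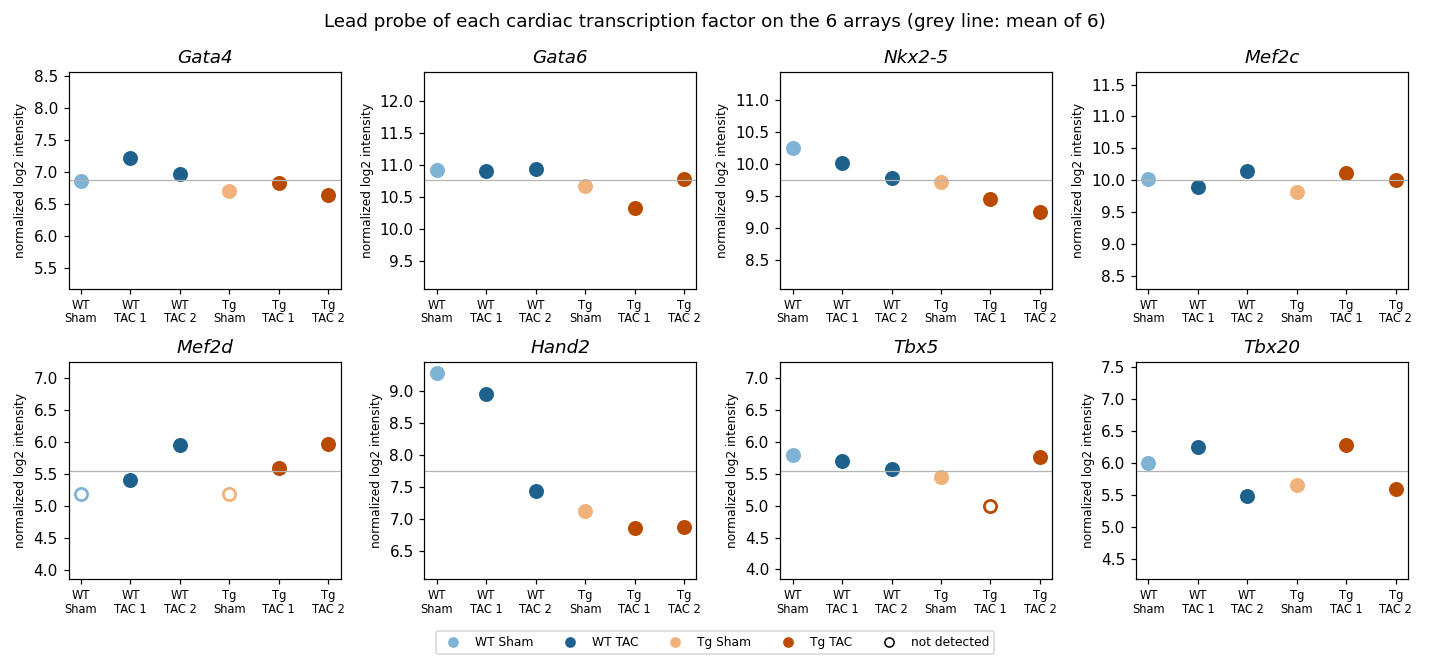
Normalized log2 intensity (y axis) of the lead probe of each of the 8 measured factors on the 6 arrays (x axis), with points coloured by labelled group, open points not detected and a grey line at the mean of the 6 arrays. Each y axis spans the same number of log2 units. *Hand2* runs from 9.28 in WT Sham to 6.85 in Tg TAC replicate 1, while *Mef2c* stays between 9.81 and 10.15.

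The zinc finger factors varied less. *Gata4*, which is needed for hypertrophic growth in adult mouse heart, had values of 6.85 in WT Sham, 7.21 and 6.97 in WT TAC, 6.70 in the library labelled Tg Sham, and 6.83 and 6.63 in Tg TAC. The raw intensities were 219, 274, 210, 182, 210 and 178 in the same order. WT and Tg libraries were separated by only 0.03, between WT Sham and Tg TAC replicate 1. Tg TAC against WT TAC gave -0.36 ± 0.22 (adjusted p = 0.72), and WT TAC against WT Sham gave 0.24 ± 0.27 (adjusted p = 1). The first was larger than the difference between replicates, 0.24 in WT TAC and 0.19 in Tg TAC, but did not pass the test.

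*Gata6*, a close relative of *Gata4* that shares many of its binding sites, was nearly level in the WT libraries at 10.92, 10.91 and 10.94. In the library labelled Tg Sham its lead probe ILMN_2868133 was 10.67, and in Tg TAC 10.32 and 10.78. Tg TAC against WT TAC gave -0.38 ± 0.20 (adjusted p = 0.69). Most of this came from Tg TAC replicate 1, without which the difference was -0.15. The other probe, ILMN_1255968, was near the detection limit and was detected on 4 arrays. It ranged from 5.05 to 6.08 with WT and Tg libraries overlapping, and gave -0.15 ± 0.44 in the same comparison.

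The MEF2 factors are those through which calcium signals and class II histone deacetylases act on muscle genes. *Mef2c* has 5 probes, 4 of them detected on all 6 arrays. The lead probe ILMN_2732465 stood at 10.02 in WT Sham, 9.90 and 10.15 in WT TAC, 9.81 in the library labelled Tg Sham, and 10.11 and 10.00 in Tg TAC, and the groups overlapped. Its range of 0.34 was wider than that of only 10.5% of probes, and Tg TAC against WT TAC gave 0.03 ± 0.18 (adjusted p = 0.97). Probe ILMN_2887992 of the same gene was 8.52, 8.86, 8.57, 8.30, 8.46 and 8.15, with all Tg libraries below all WT libraries by a gap of 0.07, and gave -0.41 ± 0.22 (adjusted p = 0.69). ILMN_1214950 stayed between 7.69 and 7.90. ILMN_1220270 ranged from 5.92 to 7.07, and ILMN_2520812 was detected on no array. The probes thus disagree on whether the genotypes overlap.

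*Mef2d*, a MEF2 factor known to be required in mice for part of the response to pressure overload, was near the detection limit. Its probe was detected on all 4 TAC arrays and on neither sham array. The values were 5.18 in WT Sham, 5.41 and 5.95 in WT TAC, 5.19 in the library labelled Tg Sham, and 5.59 and 5.96 in Tg TAC. All 4 TAC libraries lay above both shams, as 5.48% of all probes did, but the probe had passed the filter through the TAC arrays alone, so nothing is read from this. Since a sham value below detection is only a bound, each sham array was set at whichever was higher, the dimmest detected probe or this probe. The measured TAC mean then lay 1.28-fold above the shams, 1.3-fold in WT and 1.27-fold in Tg. These ratios carry no test and leave out the noise of TAC values near the detection limit. They are a description only, and no fitted TAC difference of *Mef2d* was called. Tg TAC differed from WT TAC by 0.10 ± 0.30.

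The T-box factors were dim. *Tbx5*, mutated in a human syndrome of heart and limb, stood at 5.80 in WT Sham, 5.70 and 5.57 in WT TAC, 5.45 in the library labelled Tg Sham and 5.76 in Tg TAC replicate 2 on probe ILMN_2664533. It was not well above background in Tg TAC replicate 1 (4.99). Tg TAC against WT TAC gave -0.26 ± 0.32 (adjusted p = 0.86), and 0.13 without Tg TAC replicate 1, so the direction rested on that library. The other *Tbx5* probe was detected on no array.

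*Tbx20*, a T-box factor required in adult mouse heart muscle, has 4 probes of which 2 passed the filter. ILMN_2601336 stood at 6.00 in WT Sham, 6.25 and 5.49 in WT TAC, 5.66 in the library labelled Tg Sham, and 6.28 and 5.60 in Tg TAC. In both TAC groups replicate 1 was the higher, by 0.76 in WT and 0.68 in Tg, and the genotypes overlapped (0.07 ± 0.37, adjusted p = 0.97). ILMN_1224706 ranged from 5.25 in the library labelled Tg Sham, where it was not detected, to 5.83 in Tg TAC replicate 1. The other 2 probes were detected on 1 array, Tg TAC replicate 1, and on none.

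**Figure D2:**
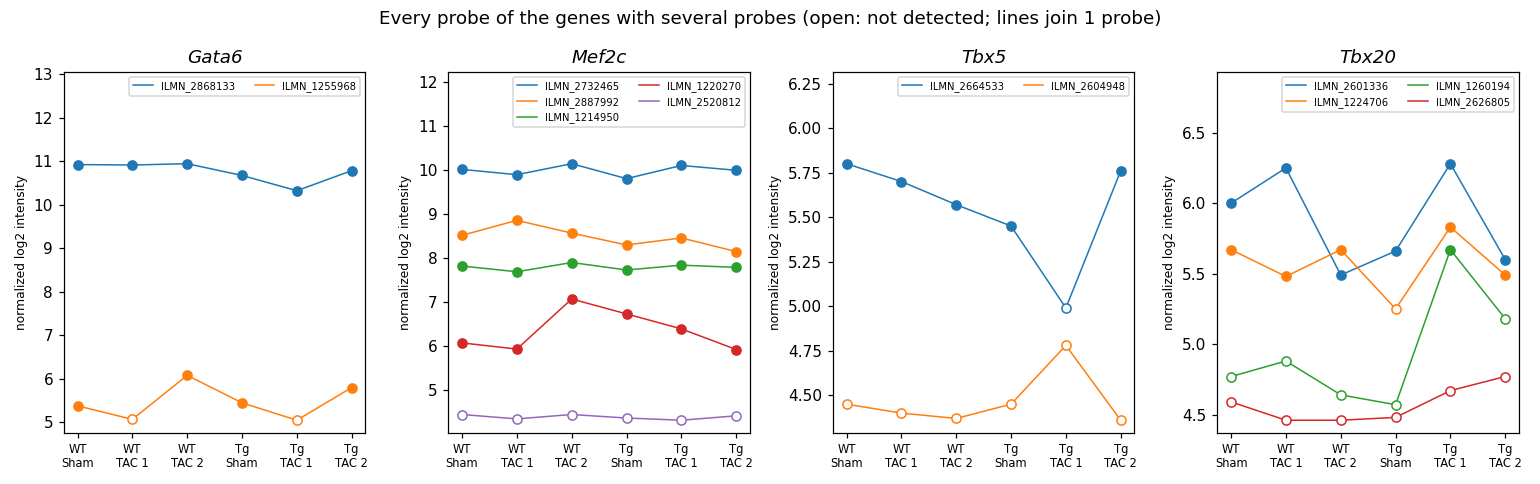
Normalized log2 intensity (y axis) of every annotated probe of the 4 genes with several probes on the 6 arrays (x axis), filled where detected and open where not, with a line joining the values of 1 probe. Of the *Mef2c* probes ILMN_1220270 ranges from 5.92 to 7.07 while ILMN_1214950 stays between 7.69 and 7.90, and the y axes differ in span between panels.

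Set together, 4 of the 8 lead probes (*Gata4*, *Gata6*, *Nkx2-5*, *Hand2*) and 5 of the 13 member probes had all 3 Tg libraries below all 3 WT libraries, where 9.66% of all probes did so, and 0 had them above, where 9.26% did. The 4 gaps between the groups were 0.03, 0.13, 0.07 and 0.30. This separation rests on the genotype labels. Grouped by *Kdm3a* probe ILMN_3118169 instead, libraries with a high and a low signal overlapped for each of these 4 genes. *Hand2* stood at 8.95, 6.85 and 6.88 where that probe was high and at 9.28, 7.43 and 7.13 where it was low. Leaving out the pair of libraries at odds with the *Kdm3a* probe could not make these 4 genes overlap, so it adds no support. In that comparison of 2 with 2, 23.7% of all probes were lower without overlap. Without that pair, Tg TAC against WT TAC gave -0.56 ± 0.26 for *Hand2*, -0.44 ± 0.24 for *Nkx2-5*, -0.40 ± 0.27 for *Gata6* and -0.24 ± 0.29 for *Gata4* (adjusted p between 0.85 and 0.91). The other 4 members gave -0.19 for *Tbx5*, -0.18 for *Mef2d*, -0.09 for *Mef2c* and 0.45 for *Tbx20*. Within TAC alone, with all libraries, the same 4 were lower in Tg without overlap, against 19.8% of probes. This too follows from the comparison of all 3 Tg with all 3 WT libraries. Centred on its own mean over the 6 arrays, the median member was at 0.14, 0.22 and 0.07 in the WT libraries and at -0.18, -0.16 and -0.12 in the Tg libraries, where the median of all probes was within 0.01 of 0 on every array. The members were chosen with earlier results of these data known, so these counts carry no test.

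By unadjusted p, *Nkx2-5* and *Hand2* were the 2 of 8 lead probes below 0.05 in Tg TAC against WT TAC, where 7.76% of all probes were. *Hand2* was the only member past 2-fold there, as 1.33% of probes were. In WT TAC against WT Sham 0 of 8 had an unadjusted p below 0.05 (2.18% of probes), and in Tg TAC against Tg Sham also 0 (2.89%). *Hand2* alone did in Tg Sham against WT Sham (3.7%), and 0 members did for the difference between the TAC responses (0.976%). TAC libraries were clear of their sham for 5 members in WT and 4 in Tg, which with a single sham library is near the 60.6% and 63.8% of all probes. Both counts include *Mef2d*, which passed the filter through the TAC arrays alone.

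A model with genotype and surgery as 2 additive terms over the 6 arrays was added after the values had been seen. It gave the same signs for the 4 genes without overlap, which the lack of overlap had already fixed, with smaller errors. The genotype term was -1.60 ± 0.39 for *Hand2* and -0.55 ± 0.13 for *Nkx2-5* (unadjusted p = 0.0043 and 0.0046, adjusted p = 0.2 for both), and 15.1% of all probes had an unadjusted p below 0.05. *Gata6* gave -0.33 ± 0.15 and *Gata4* -0.29 ± 0.16 (adjusted p = 0.35 and 0.44). No member was called. Without WT TAC replicate 2 the *Hand2* term was -2.11 with an adjusted p of 0.047, and without the pair of libraries at odds with the *Kdm3a* probe it was -0.56 with an adjusted p of 0.85. The surgery term was -0.35 ± 0.14 for *Nkx2-5* (adjusted p = 0.75).

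**Figure D3:**
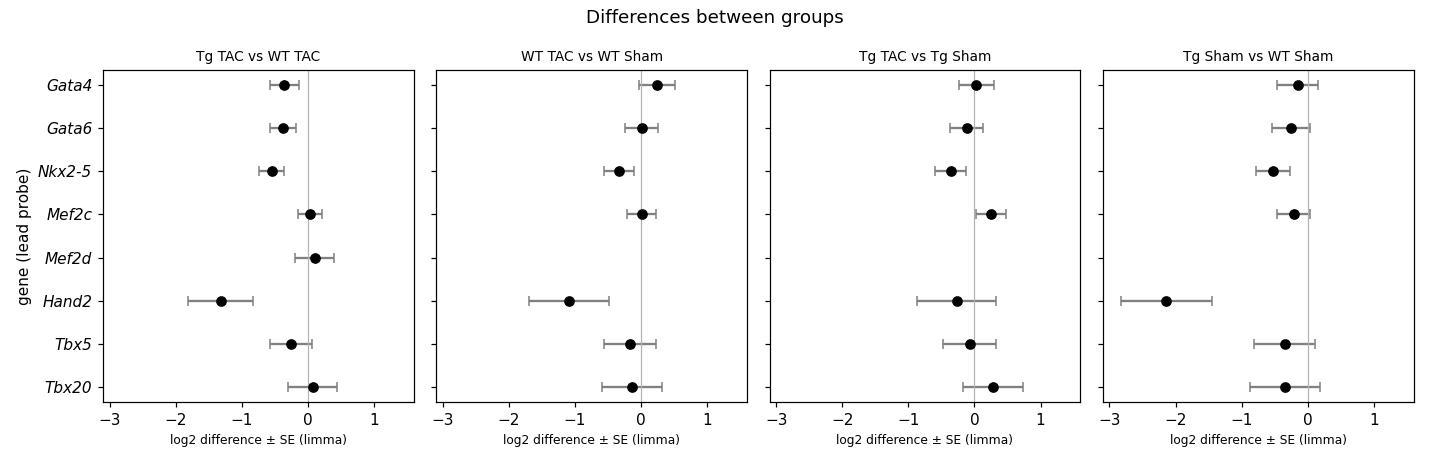
Difference in normalized log2 intensity (x axis, point with SE from limma over 6 arrays) of each lead probe (y axis) in the 4 comparisons of groups. *Hand2* lies at -1.32 in Tg TAC against WT TAC and at -2.14 between the shams, and no difference passed the threshold of adjusted p. *Mef2d* was below detection on both sham arrays and is drawn for Tg TAC against WT TAC alone.

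The *Kdm3a* probe ILMN_3118169 and *Hand2* did not share an order of libraries. The library labelled WT TAC replicate 1 had the *Kdm3a* probe at 30614 and *Hand2* at 691, while the Tg TAC libraries had the *Kdm3a* probe at 34642 and 33540 and *Hand2* at 212 and 194. The library labelled Tg Sham had both low, at 247 and 215. Another *Kdm3a* probe, ILMN_2707895, was highest in the same 2 libraries as *Hand2*. Of all pairs of member lead probes, *Nkx2-5* with *Hand2* (0.91) and *Gata6* with *Tbx5* (0.90) had the highest Pearson r over the 6 arrays. The lowest was -0.65, for *Nkx2-5* with *Mef2d*. These values are a description of 6 arrays of which 2 share each TAC group.

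**Figure D4:**
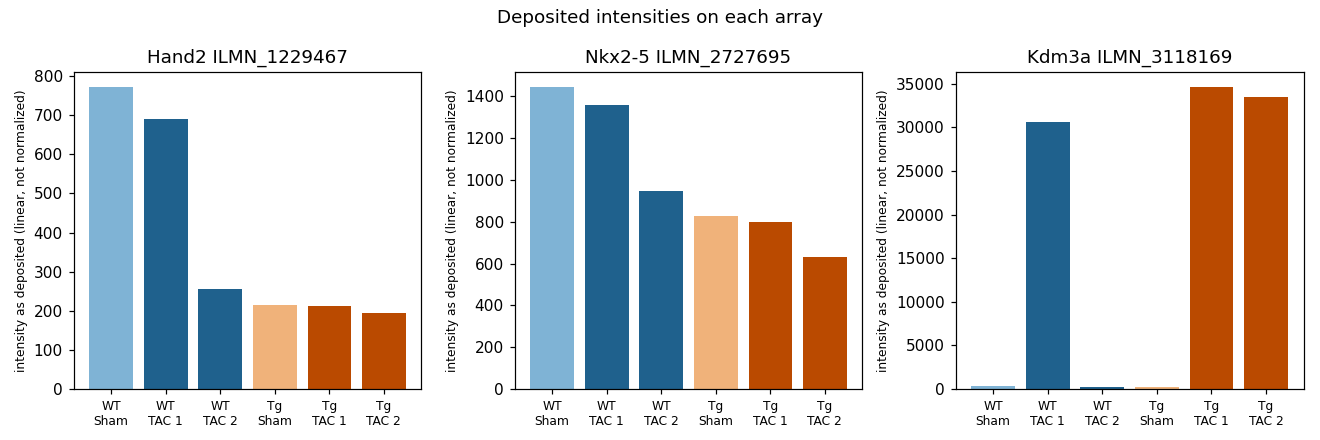
Intensity as deposited, linear and without normalization (y axis from 0), of the *Hand2*, *Nkx2-5* and *Kdm3a* ILMN_3118169 probes on each array (x axis), 1 bar per library coloured by labelled group. The *Kdm3a* bar reaches 30614 for the library labelled WT TAC replicate 1, while it is 247 for that labelled Tg Sham, and the *Hand2* bars are 772 and 691 in the first 2 libraries and at most 256 in the other 4.

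The genes most like 3 of the members over the 6 arrays were sought among 8355 genes detected on all arrays. For *Hand2* they were *Tpst2* (r = 0.9992, from 9.60 to 10.73), *Ppp1r12c* (0.9972) and *Srprb* (0.9959). For *Gata4* they were *Cstb* (0.9884), *Gnptg* (0.9868) and *Bad* (0.9811), and for *Tbx20* *Bub1b* (0.9882), *Anxa2* (0.9877) and *Uhrf1* (0.9854). With 6 points and this many genes such values are a ranking and nothing more.

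Of a list of 36 cofactors and partners of these factors, 29 were measured, and 0 were called in any comparison. In Tg TAC against WT TAC 11 were higher and 18 lower, with a median of -0.10 where that of all genes was 0.01, and 2 had an unadjusted p below 0.05. One was *Prox1*, a homeobox factor needed for sarcomere structure in mice, which stood at 8.58 in WT Sham, 9.30 and 8.96 in WT TAC, 9.05 in the library labelled Tg Sham, and 9.54 and 10.15 in Tg TAC (0.71 ± 0.27, adjusted p = 0.64). The other was *Hdac4*, a class II deacetylase that binds and represses MEF2 proteins. It stood at 8.87 in WT Sham, 7.89 and 8.30 in WT TAC, 8.19 in the library labelled Tg Sham, and 7.46 and 7.60 in Tg TAC (-0.57 ± 0.22, adjusted p = 0.64). Its TAC libraries were below their own sham in each genotype, by -0.77 ± 0.27 and -0.67 ± 0.27 (adjusted p = 1 in each).

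*Tead1*, which binds the MCAT element of muscle genes, stood at 11.42 in WT Sham, 11.42 and 11.22 in WT TAC, 11.19 in the library labelled Tg Sham, and 11.05 and 10.80 in Tg TAC (-0.39 ± 0.18, adjusted p = 0.67). *Ppargc1a*, the coactivator of mitochondrial genes, was high in the same 2 libraries as *Hand2*, at 11.52 in WT Sham and 11.34 in the library labelled WT TAC replicate 1. It lay between 9.71 and 10.35 in the other 4, and Tg Sham was -1.79 ± 0.69 against WT Sham (adjusted p = 0.99).

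Of 31 muscle genes known to need these factors, 26 were measured. In Tg TAC against WT TAC 13 were higher and 13 lower, with a median of 0.01, that of all genes, and 0 had an unadjusted p below 0.05. Between the shams 21 were higher in Tg and 4 lower, with a median of 0.13 against 0.04 over all genes, while 7 of the 8 factors were lower there, as 48% of all probes were. *Des*, the intermediate filament desmin, was 12.34 in WT Sham and 13.44 in the library labelled Tg Sham (1.10 ± 0.36, adjusted p = 0.99). In the TAC libraries it was between 12.99 and 13.79. Replicates of *Acta1* and *Myh7* differed widely. *Acta1* was 14.10 and 11.73 in WT TAC and 13.66 and 8.32 in Tg TAC. *Myh7* was 8.35 and 6.97 in WT TAC and 10.60 and 7.01 in Tg TAC. *Tnnc1* stayed between 15.25 and 15.41 on all arrays. *Kcnip2*, a subunit of the transient outward potassium channel, stood at 8.76 in WT Sham against 7.72 and 7.90 in WT TAC (-0.95 ± 0.29), and 8.31 in the library labelled Tg Sham and 7.11 and 7.58 in Tg TAC (-0.97 ± 0.29), with an adjusted p of 1 in each.

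Markers of other cells differed between some groups and between replicates. The 5 measured endothelial markers summed to 4160 to 4950 in Tg TAC and to 5520 to 6200 in the WT libraries. The library labelled Tg Sham was at 6030. All 5 were lower on average in Tg TAC than in WT TAC, with a median difference of -0.29. *Cdh5* and *Tek* overlapped between these groups, with *Tek* at 9.65 and 9.92 in WT TAC and 9.85 and 9.69 in Tg TAC. The 7 fibroblast markers summed to 17000 to 22700 in the WT and 16600 to 20500 in the Tg libraries. In both TAC groups replicate 1 was the higher, at 22700 against 17000 in WT and 20500 against 16600 in Tg. The 5 macrophage markers summed to 2680 to 4040 in the WT and 2240 to 3460 in the Tg libraries. Replicate 1 was again the higher in TAC, at 4040 against 2680 in WT and 3460 against 2240 in Tg. All 5 macrophage markers were lower on average in Tg TAC than in WT TAC, with a median difference of -0.23. The 3 measured epicardial markers summed to 65.1 in the library labelled Tg Sham and to 162 to 296 in the other 5. *Upk3b* of this list was not detected there (4.60) and was between 6.68 and 7.59 elsewhere. The 6 smooth muscle and pericyte markers summed to 5050 to 11000 in the WT and 7780 to 10700 in the Tg libraries. *Acta2* carries most of that sum, and 5 of the 6 were lower in Tg TAC than in WT TAC, with a median difference of -0.36. The 3 red cell markers summed to 34100 to 38800 in the WT and 30400 to 35800 in the Tg libraries. The part of these lists in the *Hand2*, *Nkx2-5*, *Gata4* and *Gata6* values was not tested. The cardiomyocyte sums were 167000 to 178000 in the WT and 175000 to 186000 in the Tg libraries, and these ranges overlapped.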

How the data were processed

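Total RNA of 6 left ventricles was amplified, labelled with biotin and hybridised to Illumina bead arrays. The authors deposited 1 linear intensity per probe and array without normalization, summarised with GenomeStudio 2011.1 per the submitters' processing notes, and a detection p-value in steps of 1 in 936. They also deposited a table of linear intensity after quantile normalization without background correction, with column medians between 115.72 and 115.75, used as an alternative. The platform annotation gave a single gene symbol to 34885 of the 45281 probes, several to 18 and none to 10378.

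Intensities were corrected with limma 3.58.1 (R 4.3.3) by normexp from the detection p-values, with an offset of 16, then put on the log2 scale and quantile normalized. The filter required a detection p below 0.01 on 2 or more arrays and left 17014 probes with 9577 named genes. Means of 4 groups were fitted over 6 arrays (2 residual degrees of freedom) with eBayes and an intensity trend, and p-values were adjusted by Benjamini-Hochberg over all probes. The single sham arrays were taken to have the spread of the TAC groups. The additive model, with 3 residual degrees of freedom, was added after the data had been seen. The fits were tested on simulated data. The number of arrays limits the precision. Named were all members, *Kdm3a*, the 3 genes most like *Gata4*, *Hand2* and *Tbx20*, and list genes with the smallest p. Members and lists were chosen with earlier results of these data known. Alternatives were another scaling, no background correction, other filters, probes per gene, no trend, the methods' t-test, an animal number block and leaving out libraries.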

Additional observations from a re-analysis of the deposited data

How the results depend on the processing

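The dim probes of *Mef2d*, *Tbx5* and *Tbx20* lie near background. The 5 comparisons of group means called 0 member probes under each alternative run for them. Leaving out the pair of libraries at odds with the *Kdm3a* probe was run for Tg TAC against WT TAC and for WT TAC against WT Sham. The methods' t-test was run for Tg TAC against WT TAC, where it called 1295 probes and 0 members unadjusted and 0 after Benjamini-Hochberg. Of the values of single members, 476 kept their direction and side of the threshold, 39 changed sign, none of them called, and 3 became calls. *Hand2*, *Nkx2-5*, *Gata4* and *Gata6* kept their sign in Tg TAC against WT TAC under all 14 alternatives, where *Hand2* ranged from -2.08 to -0.56. Only median scaling, the table without background correction and, for *Gata6*, the mean of its probes could have changed a sign. The other alternatives left the difference as it was or left out libraries of groups that do not overlap. The count of members with all Tg libraries below all WT libraries was 4 except for 3 with the mean of the probes of a gene (*Gata6* overlapped) and 5 without Tg TAC replicate 2 (*Tbx5* added). Much of this was fixed in advance. The filters, the lead probe alone, the trend and the block leave the values of these genes unchanged, and leaving out libraries can only keep or raise the count.

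The animal numbers fall in 2 series, and the deviations of same-numbered TAC libraries correlated at 0.53, but the animals differ, and libraries with the same replicate label share only that label and a number series, which the labels do not tie to a litter, batch or day. With this replicate block the additive genotype term called 2 member probes, *Nkx2-5* (-0.55, adjusted p = 0.036) and *Hand2* (-1.60, adjusted p = 0.035), among 731 probes in all. All probes called with the block numbered 298 for Tg TAC against WT TAC, 6 for WT TAC against WT Sham, 347 for Tg TAC against Tg Sham, 30 between the shams and 0 for the interaction, where 0 were called without it. Signs changed with the block for WT TAC against WT Sham in *Gata6* (-0.12), *Mef2c* (-0.02) and *Tbx20* (0.22), and for Tg TAC against Tg Sham in *Hand2* (0.11). The cause was not tested.

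With median scaling the sign changed for Tg TAC against WT TAC in *Mef2c* (-0.13) and *Tbx20* (-0.02), for WT TAC against WT Sham in *Gata6* (-0.04) and *Mef2c* (-0.04), and for *Mef2d* between the shams (-0.09, both below detection) and in the additive term (-0.01). With the mean of the probes of a gene *Mef2c* changed to -0.18 for Tg TAC against WT TAC, -0.06 for Tg TAC against Tg Sham and 0.03 between the shams. Without the pair of libraries at odds with the *Kdm3a* probe, Tg TAC against WT TAC changed to -0.09 in *Mef2c* and -0.18 in *Mef2d*, and the additive term to -0.18 in *Mef2d* and 0.45 in *Tbx20*.

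Leaving out 1 library at a time, the additive genotype term called 0 to 1 member probes, the 1 being *Hand2* without WT TAC replicate 2 (14 probes in all). Ranges for Tg TAC against WT TAC that crossed 0 were -0.09 to 0.15 for *Mef2c*, -0.18 to 0.37 for *Mef2d*, -0.31 to 0.45 for *Tbx20* and -0.64 to 0.13 for *Tbx5*. For WT TAC against WT Sham they were -0.01 to 0.03 for *Gata6*, -0.11 to 0.13 for *Mef2c* and -0.52 to 0.24 for *Tbx20*. For Tg TAC against Tg Sham they were -0.07 to 0.13 for *Gata4*, -0.35 to 0.11 for *Gata6*, -0.46 to 0.31 for *Tbx5* and -0.06 to 0.62 for *Tbx20*. For the additive term they were -0.14 to 0.03 for *Mef2c*, -0.09 to 0.22 for *Mef2d* and -0.32 to 0.11 for *Tbx20*.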

Other observations

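Of 16 related factors of other heart regions or stages, 14 have probes, 7 were measured and 0 were called (limma). *Gata5*, *Hand1*, *Isl1*, *Tbx1*, *Tbx18*, *Mesp1* and *Nkx2-6* have probes that did not pass the filter. *Tbx2*, a repressor known from non-chamber muscle, stood at 5.95 in WT Sham, 6.20 and 6.11 in WT TAC, 6.08 in the library labelled Tg Sham, and 5.57 in Tg TAC replicate 1. In Tg TAC replicate 2 it was not well above background (5.05). *Irx3*, an Iroquois factor of the conduction system, was lowest in WT Sham at 10.09 and between 10.60 and 11.11 in the other 5 libraries. *Nr2f2*, known for atrial identity, was 6.01 in WT Sham and was detected on 4 arrays, with the library labelled Tg Sham (5.06) and Tg TAC replicate 1 (5.11) not well above background.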
